A study of Mus musculus with 6 samples.

Results

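The 40 interferon-stimulated genes in a list of symbols were followed in blasts of CEBPA-mutant acute myeloid leukemia (AML) with and without *Tet2*. They were chosen as known members of the interferon response, and all 40 were found among 53458 annotated genes. Blasts were sorted from the bone marrow of 3 *Cebpa*-/p30 *Tet2*+/+ mice (mice 19, 23 and 24) and 3 *Cebpa*-/p30 *Tet2*-/- mice (mice 5, 7 and 8) as live CD45.2+ cells without CD3, B220 and Ter119, and 1 RNA-seq library was made per mouse. All 6 leukemias arose from C57BL/6 marrow placed in irradiated recipients of the C57BL/6J.SJL strain, and all expressed from *Cebpa* only p30, the short isoform of the transcription factor C/EBPα. The floxed alleles (the wild-type *Cebpa* allele in every mouse, and both *Tet2* alleles in the *Tet2*-/- mice) were removed by Mx1-Cre, a recombinase driven by the interferon-inducible *Mx1* promoter and switched on by injected Poly(I)-Poly(C), a double-stranded RNA analogue that itself elicits interferon. Both genotypes were thus derived with the same interferon stimulus. The labels give neither the time from injection to sampling nor whether the sequenced blasts came from the injected mice themselves or from secondary recipients of their marrow. By the methods of the study, marrow was taken when a mouse was moribund, so this time may differ between mice and between genotypes, and its part cannot be told apart from that of genotype. The comparison asks whether loss of the DNA demethylase TET2 goes with another level of the interferon response.

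Type I interferons bind the receptor IFNAR, whose kinases JAK1 and TYK2 phosphorylate STAT proteins, STAT2 among them. STAT2 and IRF9 are subunits of ISGF3, a complex that binds the interferon-stimulated response element (ISRE) in the promoters of target genes. The targets encode sensors of viral RNA and DNA, proteins that block translation or entry of viruses, the ubiquitin-like modifier ISG15 with its enzymes, and factors such as IRF7 that amplify the response. Cells of the blood system also keep a low level of these genes without infection, through tonic interferon signaling.

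The ISRE can be read directly in several of these promoters. RefSeq promoter windows (GRCm38.p6, 250 bases before and 50 bases after the annotated start) were matched to 30 of the 40 members. The ISRE core (GAAA, any 2 bases, then GAAA), searched on both strands, was found in 19 of these 30 (63.3%), against 3.99% of the 27025 genes with a window. The same core followed by C was found in 15 of 30, against 0.944% of genes. The gamma-activated site TTCNNNGAA, an element of the response to interferon gamma, was found in 6 of 30 (20.0%), against 9.55% of genes. A match is a description of the letters and not a measured binding site. The windows of *Ifit1* (chr19:34640639-34640918, plus strand), *Ifit3* (chr19:34583279-34583558, plus strand) and *Ifit3b* (chr19:34607707-34607986, plus strand) are shown because these neighboring genes had separated levels in the 2 genotypes, *Ifitm3* (chr7:141010715-141010994, minus strand) because it was separated in the opposite direction, and *Isg15* (chr4:156200789-156201068, minus strand) as a member with a dense run of the motif and overlapping levels. Each is given 5′ to 3′ on the strand of the gene, from 250 bases before the start site to the first 30 bases after it, and capitals mark the ISRE core or its reverse complement.
Ifit1: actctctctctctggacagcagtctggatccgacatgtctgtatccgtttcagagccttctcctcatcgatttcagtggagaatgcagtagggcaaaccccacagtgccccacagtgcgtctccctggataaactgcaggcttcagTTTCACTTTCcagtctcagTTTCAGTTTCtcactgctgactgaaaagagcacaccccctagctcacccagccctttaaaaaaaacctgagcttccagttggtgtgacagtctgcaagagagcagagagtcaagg
Ifit3: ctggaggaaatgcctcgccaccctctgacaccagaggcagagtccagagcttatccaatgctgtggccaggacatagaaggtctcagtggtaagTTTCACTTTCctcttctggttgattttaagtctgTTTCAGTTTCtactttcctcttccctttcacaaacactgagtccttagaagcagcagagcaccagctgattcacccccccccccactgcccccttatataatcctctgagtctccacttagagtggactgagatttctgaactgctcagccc
Ifit3b: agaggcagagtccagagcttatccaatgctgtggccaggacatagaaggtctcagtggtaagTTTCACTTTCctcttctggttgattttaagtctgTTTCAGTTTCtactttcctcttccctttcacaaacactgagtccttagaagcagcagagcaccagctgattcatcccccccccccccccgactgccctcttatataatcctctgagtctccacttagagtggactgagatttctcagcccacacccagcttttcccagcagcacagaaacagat
Ifitm3: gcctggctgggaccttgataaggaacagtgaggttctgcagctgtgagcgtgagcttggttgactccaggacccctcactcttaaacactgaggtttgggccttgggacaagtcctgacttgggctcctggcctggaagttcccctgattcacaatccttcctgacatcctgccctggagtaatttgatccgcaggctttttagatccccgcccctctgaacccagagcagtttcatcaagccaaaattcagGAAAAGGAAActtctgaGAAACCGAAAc
Isg15: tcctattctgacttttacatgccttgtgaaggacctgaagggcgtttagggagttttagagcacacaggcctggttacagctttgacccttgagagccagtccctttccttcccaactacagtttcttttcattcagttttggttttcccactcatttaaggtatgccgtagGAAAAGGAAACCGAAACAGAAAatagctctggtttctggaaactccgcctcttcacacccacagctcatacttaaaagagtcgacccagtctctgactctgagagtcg

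In *Ifit1*, the cores began at positions −104 and −85 from the start site, both on the opposite strand. *Ifit3* and *Ifit3b* carried the same pair of cores with the same spacing, at −156 and −122 in *Ifit3* and at −188 and −154 in *Ifit3b*, and 258 of 340 alignment columns (75.9%) of their 300-base windows were identical. In *Isg15*, overlapping cores began at −78, −72 and −66. The cores of *Ifitm3* lay downstream of the RefSeq start, at 2 and 19, and that of *Ifih1*, which encodes the RNA sensor MDA5, began at 32. No ISRE core was found in the windows of *Irf9* and *Oasl1*, which says only that these letters are not in these windows.

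**Figure D1:**
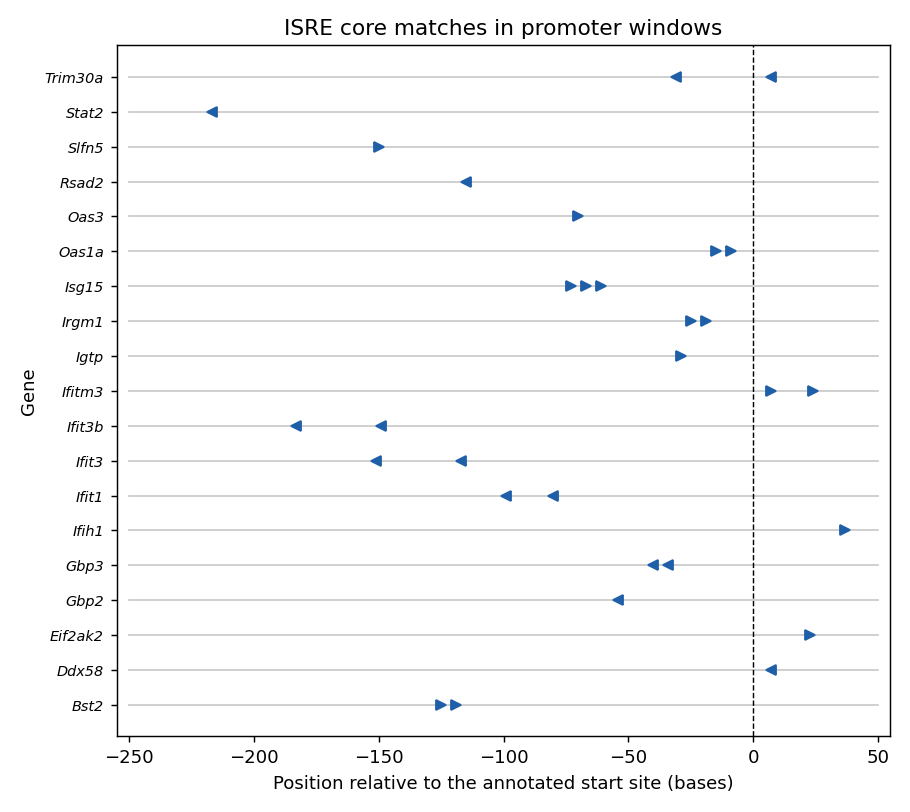
Positions of ISRE core matches in the promoter windows of the 19 members with at least 1 match. The horizontal axis is the distance in bases from the annotated start site (dashed line), each arrowhead is a match centered on its position and pointing along its strand, and gray lines are the windows of 300 bases. *Isg15* holds 3 overlapping matches, and in *Ifitm3*, *Ifih1*, *Eif2ak2* and *Ddx58* all matches lie after the start site. The 2 windows of *Trim30a* share a line.

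Levels are given as TMM-normalized CPM, the reads of a gene relative to the library total after scaling between libraries, in the order of mice 19, 23 and 24 for *Tet2*+/+ and mice 5, 7 and 8 for *Tet2*-/-. Libraries held between 13036643 reads (mouse 24) and 32855343 reads (mouse 5). *Tet2* itself was at 73.6, 79.5 and 98.4 CPM in *Tet2*+/+ and 111, 79.4 and 96.7 CPM in *Tet2*-/- blasts over the whole gene, and *Cebpa* was at 140, 194 and 287 CPM against 158, 75.7 and 124 CPM. The genotype label can therefore not be checked by whole-gene reads, which need not fall when a floxed exon is removed. Blast genes such as *Mpo*, *Elane* and *Kit* were expressed in all 6 libraries, 9 of 9 listed markers with a summed level between 7559 and 10120 CPM. Of these 9, 5 had positive log2 fold changes, and 1, *Mpo*, did not overlap between genotypes (beside 7.71% of genes lower). *Mpo* was at 4527, 4110 and 4230 CPM in *Tet2*+/+ and 3394, 3091 and 2662 CPM in *Tet2*-/- blasts, a log2 fold change of −0.49 (SE 0.25). These values are given after they were seen.

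None of the 40 interferon-stimulated genes passed the threshold of 0.05 in the comparison of *Tet2*-/- with *Tet2*+/+ blasts. The smallest adjusted p among them, from the quasi-likelihood test of edgeR (Benjamini-Hochberg) over all 22170 genes tested, was 0.404, for *Ifit3b*. Over all genes, 10 were called lower (0.0451%) and 0 were called higher (0.0%), the latter beside 664 (3.0%) higher at an unadjusted p under 0.05. DESeq2 also called 0 members, with 0.0528 as its smallest adjusted p, again for *Ifit3b*. Over all genes it called 59 higher and many more lower, and both counts are given with the alternatives below. In simulated counts of this design with 200 changed genes, edgeR recovered after adjustment 0% of those with a log2 change of 1 and 51.5% of those with a log2 change of 2. At an unadjusted p under 0.05 it recovered 64.5% and 91%. A change of 2-fold was thus not detectable by edgeR after adjustment in that simulation, and DESeq2 was not simulated.

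Before adjustment, 5 members had p under 0.05 and a lower level in *Tet2*-/- blasts (*Ifih1*, *Ifit1*, *Ifit3*, *Ifit3b* and *Oasl1*; 5 of 40, beside 5.12% of all genes) and 1 had a higher level (*Ifitm3*; 1 of 40, beside 3.0% of all genes). Of the 39 members with a mean of at least 1 CPM, 6 did not overlap between genotypes with *Tet2*-/- lower, namely those 5 and *Irf9* (beside 7.71% of 13839 genes at that level). *Ifitm3* alone did so with *Tet2*-/- higher (beside 8.24%). The median log2 fold change of the 40 members was −0.19, with a range from −2.07 to 1.41, beside 0.00 over all genes. It was negative in 29 members (72.5%) and in 49.9% of all genes. This lean rested in part on mouse 8: without it the median was −0.10 beside −0.04 over all genes, and 24 members were negative beside 52.6% of genes. With scaling by library size only, all genes shifted to a median of −0.17, with 65.0% negative, and the members to −0.37, with 35 negative.

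**Figure D2:**
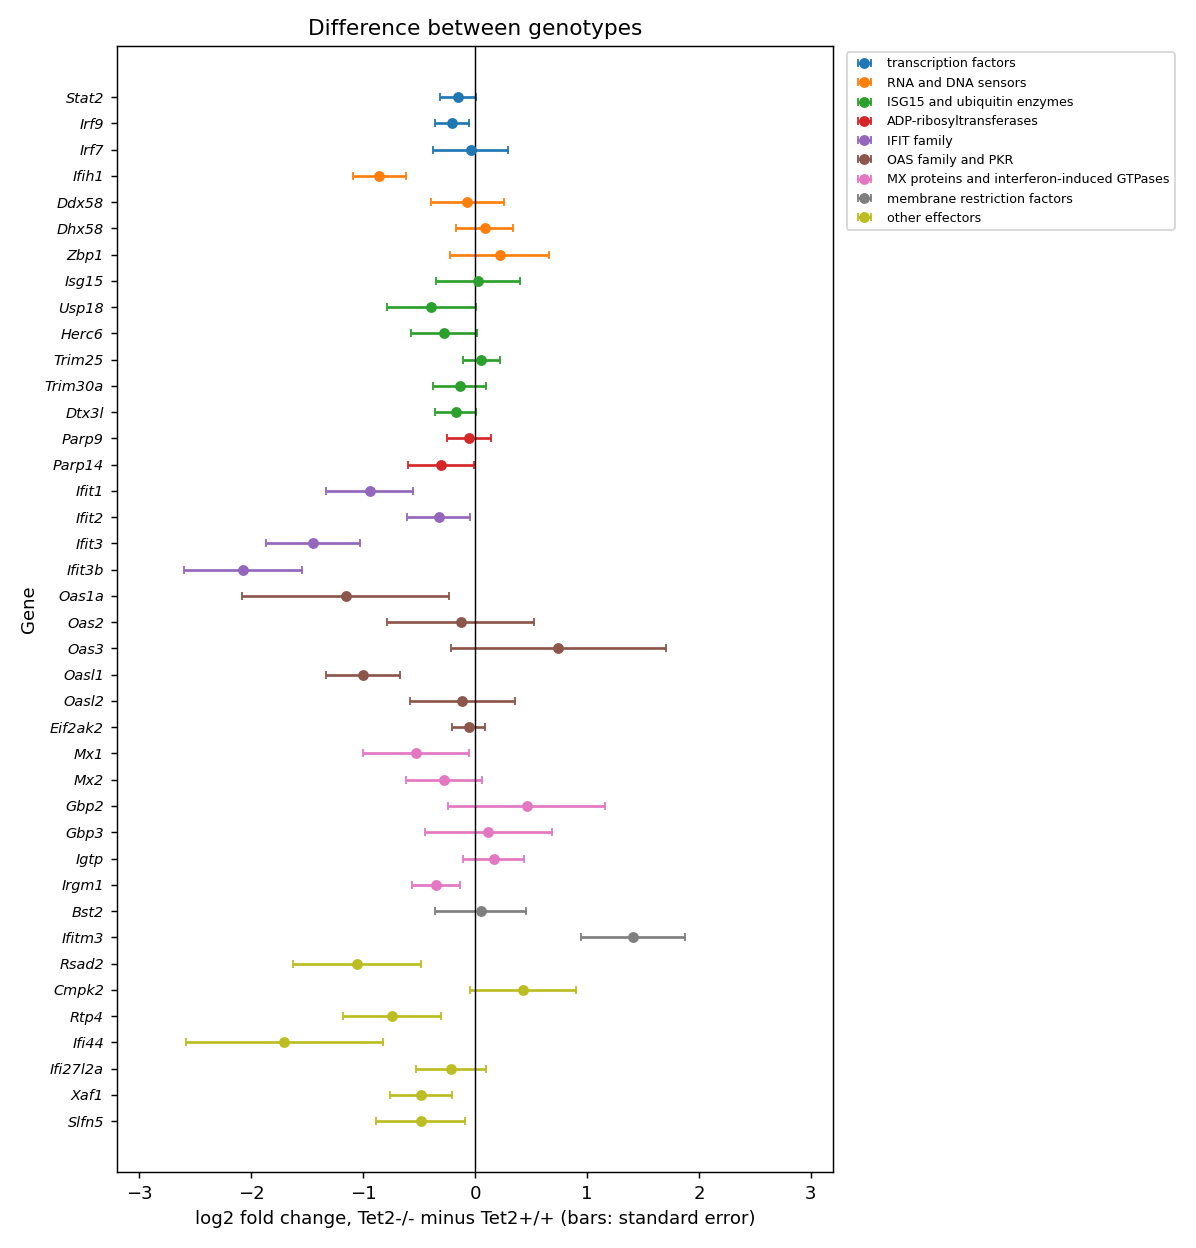
Log2 fold change (*Tet2*-/- minus *Tet2*+/+, horizontal axis) of each of the 40 members, grouped and colored by role, with the standard error from edgeR as bars. *Ifit3b* is the most negative at −2.07 and *Ifitm3* the most positive at 1.41, while the bars of most other members reach or come close to 0. *Ifi44*, at few reads, has a wide bar.

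The 3 transcription factors among the members had log2 fold changes between −0.20 and −0.04. *Stat2*, a subunit of ISGF3, was at 59.6, 74.7 and 74.1 CPM in *Tet2*+/+ and 59.7, 61.0 and 66.9 CPM in *Tet2*-/- blasts, a log2 fold change of −0.15 (SE 0.16), and the groups overlapped. *Irf9*, which gives ISGF3 its DNA binding, was at 56.1, 54.9 and 52.6 CPM against 49.7, 51.1 and 41.2 CPM. All 3 *Tet2*-/- mice were thus below all 3 *Tet2*+/+ mice, but by a log2 fold change of only −0.20 (SE 0.15), with an adjusted p of 0.781 by edgeR (quasi-likelihood, Benjamini-Hochberg). *Irf7*, the amplifier of type I interferon production, was at 35.0, 26.4 and 30.6 CPM against 20.3, 46.5 and 22.95 CPM. Mouse 7 had the highest value of *Irf7* and mice 5 and 8 the lowest, so the means were close (log2 fold change −0.04, SE 0.34).

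Among the nucleic acid sensors, *Ifih1* was set apart from its relatives. MDA5, its product, detects long double-stranded RNA of the kind to which Poly(I)-Poly(C) belongs. *Ifih1* (chr2:62595798-62646255, GRCm38) was at 25.4, 27.8 and 31.4 CPM in *Tet2*+/+ (28.2 ± 3.04, SD, n = 3) and at 14.7, 19.9 and 12.2 CPM in *Tet2*-/- blasts (15.6 ± 3.91, SD, n = 3). Every *Tet2*-/- mouse was below every *Tet2*+/+ mouse, a log2 fold change of −0.85 (SE 0.24). The unadjusted p was 0.00811 and the adjusted p 0.456 by edgeR (quasi-likelihood, Benjamini-Hochberg). The exact two-sided permutation test gave p = 0.1, the smallest that 3 mice against 3 can give, here and for each other separated gene. *Ddx58*, which encodes the short-RNA sensor RIG-I, was at 52.6, 41.1 and 65.7 CPM against 50.2, 71.3 and 30.4 CPM. *Dhx58*, which encodes LGP2, a regulator of both sensors, was at 36.2, 23.1 and 25.8 CPM against 24.7, 38.2 and 27.6 CPM. In both genes the *Tet2*-/- mice spanned the *Tet2*+/+ range or most of it, with log2 fold changes of −0.07 (SE 0.33) and 0.09 (SE 0.26). The Z-nucleic acid sensor *Zbp1* was between 5.48 CPM (mouse 8) and 19.1 CPM (mouse 7).

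The ISG15 system did not separate by genotype. *Isg15*, the modifier itself, was low, at 5.62, 3.37 and 5.00 CPM against 4.33, 6.49 and 3.47 CPM, a log2 fold change of 0.03 (SE 0.37). *Usp18*, the protease that removes ISG15 and restrains IFNAR signaling, was at 4.73, 2.89 and 2.89 CPM against 2.06, 3.54 and 2.44 CPM (log2 fold change −0.39, SE 0.40). In both genes mice 19 and 7, which differ in genotype, had the 2 highest values. The E3 ligase *Trim25*, which activates RIG-I, was at 81.8, 88.6 and 70.9 CPM against 88.8, 73.5 and 88.8 CPM, and *Trim30a*, a brake on NF-κB signaling, was at 64.4, 81.9 and 74.0 CPM against 88.3, 62.3 and 49.4 CPM, with log2 fold changes of 0.06 (SE 0.16) and −0.14 (SE 0.24). *Herc6* (the main ISG15 ligase in mice) and *Dtx3l* (a ubiquitin ligase) also overlapped, as did the ADP-ribosyltransferases *Parp9*, at 30.3, 30.4 and 28.0 CPM against 31.7, 31.5 and 22.1 CPM, and *Parp14*, at 36.2, 63.7 and 49.7 CPM against 42.9, 27.8 and 50.5 CPM. *Dtx3l* and *Parp9* lie head to head within 46.1 kb, share 6.03% and 6.63% of their 75-base windows with each other, and were counted without strand, so reads from their overlap cannot be told apart.

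The members of the IFIT family bind foreign RNA and block its translation, and all 4 lie within 99.3 kb on chr19:34550694-34650009. All 4 had negative log2 fold changes, a sign that did not change under any alternative or without any mouse, and 3 of 4 did not overlap between genotypes (beside 7.71% of genes). *Ifit1* was at 3.89, 3.21 and 3.17 CPM in *Tet2*+/+ and 1.83, 2.31 and 1.19 CPM in *Tet2*-/- blasts, a log2 fold change of −0.94 (SE 0.39) with an unadjusted p of 0.0451 by edgeR. It was no longer under 0.05 with length-scaled counts in edgeR, without a filter on low counts, or without any of mice 5, 8, 19, 23 and 24. *Ifit3* was at 3.71, 7.82 and 7.46 CPM against 1.65, 2.51 and 2.82 CPM, a log2 fold change of −1.45 (SE 0.42) with an adjusted p of 0.491 by edgeR (quasi-likelihood, Benjamini-Hochberg). *Ifit3b* was at 1.32, 1.66 and 1.97 CPM against 0.190, 0.514 and 0.488 CPM, a log2 fold change of −2.07 (SE 0.53), the largest in size among the members. It rested on 22, 31 and 28 reads in *Tet2*+/+ and 6, 8 and 9 reads in *Tet2*-/- libraries. Mouse 19 was the lowest *Tet2*+/+ mouse for both *Ifit3* and *Ifit3b*, and mouse 5 the lowest *Tet2*-/- mouse. The 2 genes are near copies: 41.1% of the 75-base windows of *Ifit3* also occur in *Ifit3b*, so the split of reads between them is uncertain. Counted as 1 gene, a choice made after these values were seen, they had a log2 fold change of −1.55 and an adjusted p of 0.418 by edgeR with Benjamini-Hochberg adjustment. *Ifit2* overlapped, at 20.8, 13.01 and 15.6 CPM against 12.8, 16.5 and 10.2 CPM (log2 fold change −0.32, SE 0.28). Summed over the family, the level was 29.7, 25.7 and 28.2 CPM in *Tet2*+/+ and 16.5, 21.8 and 14.7 CPM in *Tet2*-/- blasts, without overlap. The share of reads from mitochondrial genes also separated in this direction, at 2.66%, 3.41% and 3.35% in *Tet2*+/+ and 2.001%, 1.79% and 2.60% in *Tet2*-/- libraries, and its part in the result was not tested.

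**Figure D3:**
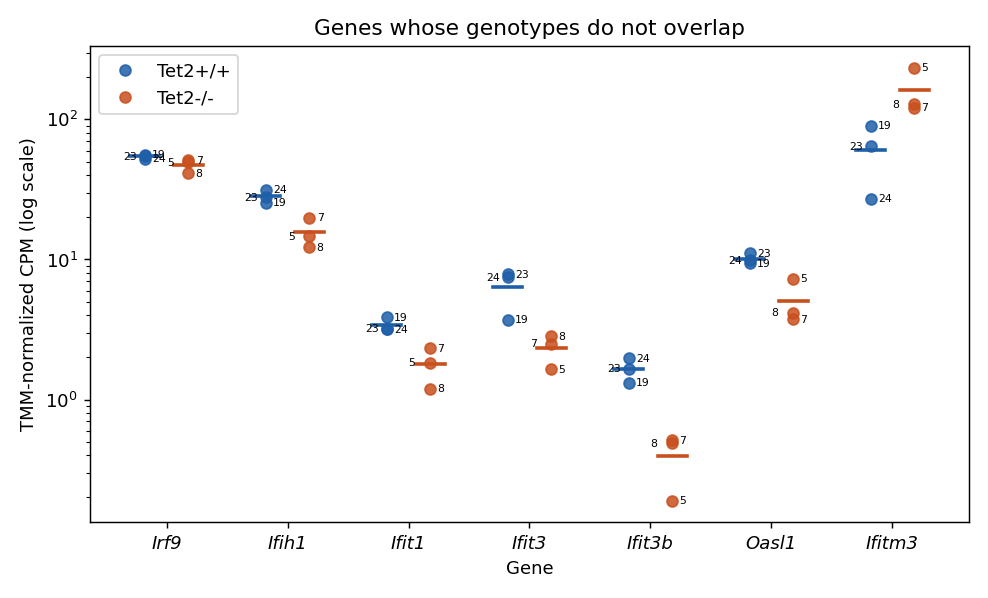
TMM-normalized CPM (log scale) of the 7 members with a mean of at least 1 CPM whose genotypes do not overlap. Points are single mice with their numbers, blue for *Tet2*+/+ and orange for *Tet2*-/-, and bars are group means. In 6 genes the *Tet2*-/- points lie below the *Tet2*+/+ points, by the least in *Irf9*, and in *Ifitm3* they lie above.

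The 2′-5′-oligoadenylate synthetases, which make the second messenger that activates RNase L, varied more between mice than between genotypes. Their values per mouse are given for 3 members outside the naming rule, *Oas1a*, *Oas2* and *Oas3*, chosen after they were seen. *Oas3* was at 69.3, 10.4 and 12.3 CPM in *Tet2*+/+ and 31.2, 110 and 12.9 CPM in *Tet2*-/- blasts, with a log2 fold change of 0.74 (SE 0.96). *Oas2* was at 48.6, 11.5 and 14.4 CPM against 18.8, 38.6 and 10.9 CPM (log2 fold change −0.13, SE 0.66). Both were highest in mouse 19 of the *Tet2*+/+ and in mouse 7 of the *Tet2*-/- group, and low in mice 23, 24 and 8. *Oas1a* did not follow its neighbors within the locus of 177 kb on chromosome 5. It was at 11.5, 23.3 and 20.4 CPM against 20.8, 1.67 and 2.17 CPM, with a log2 fold change of −1.15 (SE 0.92), so that mouse 7 was the highest for *Oas3* and the lowest for *Oas1a*. Without mouse 5, the *Oas1a* log2 fold change was −3.26, with an adjusted p of 0.205 by edgeR with Benjamini-Hochberg adjustment. Of the 75-base windows of *Oas1a*, 47.6% also occur in *Oas1g*, and summed with it the log2 fold change was −1.16.

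The OAS-like genes lie elsewhere on the same chromosome. *Oasl1*, which restrains the translation of *Irf7*, was at 9.45, 11.1 and 9.93 CPM in *Tet2*+/+ (10.2 ± 0.839, SD, n = 3) and 7.28, 3.73 and 4.18 CPM in *Tet2*-/- blasts (5.06 ± 1.93, SD, n = 3), without overlap. Its log2 fold change was −0.999 (SE 0.33), with an adjusted p of 0.549 by edgeR (quasi-likelihood, Benjamini-Hochberg). *Oasl2* overlapped, at 23.7, 18.95 and 24.9 CPM against 14.9, 37.5 and 10.0 CPM, again with mouse 7 the highest. *Eif2ak2*, which encodes the kinase PKR that halts translation on double-stranded RNA, was the steadiest member, at 56.8, 49.0 and 52.2 CPM against 46.7, 53.4 and 51.7 CPM. Its highest mouse exceeded its lowest 1.22-fold.

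**Figure D4:**
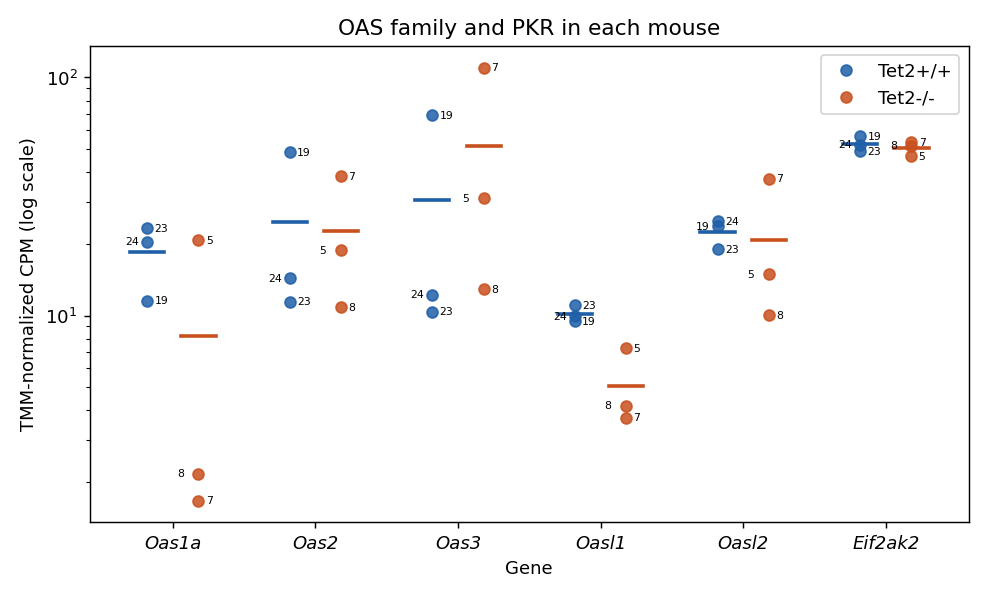
TMM-normalized CPM (log scale) of the OAS family and *Eif2ak2* (PKR) in each mouse, numbered, blue for *Tet2*+/+ and orange for *Tet2*-/-, with bars at group means. *Oas2* and *Oas3* peak in mice 19 and 7, *Oas1a* is near 2 CPM in mice 7 and 8, *Oasl1* separates by genotype, and *Eif2ak2* is nearly level.

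The 6 interferon-induced GTPases among the members (*Mx1*, *Mx2*, *Gbp2*, *Gbp3*, *Igtp* and *Irgm1*) overlapped between genotypes. *Mx1* was at 18.01, 21.6 and 15.4 CPM in *Tet2*+/+ and 8.07, 6.94 and 23.2 CPM in *Tet2*-/- blasts (log2 fold change −0.52, SE 0.47). Mouse 8 had the highest *Mx1* value and mice 5 and 7 the lowest. Without mouse 8, the *Mx1* log2 fold change was −1.29, with an unadjusted p of 0.00254 and an adjusted p of 0.365 by edgeR with Benjamini-Hochberg adjustment. The *Mx1* gene of C57BL/6 mice is known to encode a truncated protein. *Irgm1*, a GTPase of membrane remodeling and stem cell maintenance, was at 23.9, 31.7 and 31.8 CPM against 26.5, 23.5 and 18.7 CPM, a log2 fold change of −0.35 (SE 0.21). *Gbp3*, a guanylate-binding protein named after its values were seen, was at 18.5, 28.9 and 17.9 CPM against 46.6, 10.2 and 13.9 CPM (log2 fold change 0.12, SE 0.57). *Gbp2* ranged from 3.58 CPM in mouse 8 to 28.0 CPM in mouse 5, and *Mx2* and *Igtp* stayed between 2.31 and 3.59 CPM and between 15.2 and 27.0 CPM.

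The membrane restriction factor *Ifitm3*, which blocks fusion of viruses in endosomes, was the exception in direction. *Ifitm3* (chr7:141009586-141010770, GRCm38) was at 90.5, 64.5 and 27.1 CPM in *Tet2*+/+ (60.7 ± 31.9, SD, n = 3) and 235, 121 and 128 CPM in *Tet2*-/- blasts (161 ± 63.6, SD, n = 3). All *Tet2*-/- mice were above all *Tet2*+/+ mice, a log2 fold change of 1.41 (SE 0.46). The unadjusted p was 0.0184 and the adjusted p 0.544 by edgeR (quasi-likelihood, Benjamini-Hochberg). Without mouse 5, which had the highest value, the log2 fold change was 1.04 and the unadjusted p was no longer under 0.05. *Bst2*, which encodes tetherin, a factor that holds budding viruses at the cell surface, was at 17.0, 26.4 and 17.3 CPM against 30.1, 10.2 and 22.5 CPM (log2 fold change 0.05, SE 0.40). Beside *Ifitm3*, the 10 listed monocyte and macrophage markers summed to 2450, 3593 and 1836 CPM in *Tet2*+/+ and 4895, 2496 and 5806 CPM in *Tet2*-/- blasts, overlapping. Their median log2 fold change was 0.81, with 9 of 10 positive and 1 of 10, *Ly6c2* (named after its values were seen), without overlap, and that of 10 mature neutrophil markers was 0.92, with 10 of 10 positive and 0 without overlap, beside 8.24% of genes higher without overlap. In bulk RNA, more cells of a type and more RNA per cell cannot be told apart, and the part of these cells in the result was not tested.

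The other effectors ranged widely. *Cmpk2*, a mitochondrial nucleotide kinase, and *Rsad2*, which encodes the antiviral radical SAM enzyme viperin, are neighbors within 37.1 kb on chromosome 12. *Cmpk2* was at 58.6, 29.8 and 42.3 CPM against 42.8, 103 and 30.1 CPM (log2 fold change 0.43, SE 0.47). *Rsad2*, named after its values were seen, was at 18.2, 7.12 and 9.65 CPM against 4.24, 10.0 and 2.61 CPM (log2 fold change −1.05, SE 0.57). Both were highest in mouse 19 within *Tet2*+/+ and in mouse 7 within *Tet2*-/-, while their ratio differed: in mouse 19 *Cmpk2* was the lower of its 2 peaks and *Rsad2* the higher. *Ifi27l2a*, a small mitochondrial protein, was at 14.7, 26.4 and 18.8 CPM against 18.03, 11.96 and 21.5 CPM (log2 fold change −0.22, SE 0.31). The chaperone-like *Rtp4*, the pro-apoptotic *Xaf1* and the Schlafen gene *Slfn5* overlapped as well. *Ifi44* was almost silent, with 6, 6 and 4 reads in *Tet2*+/+ and 6, 0 and 1 reads in *Tet2*-/- libraries, too few for a fold change.

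Per transcript length, the members were above the typical gene. The median of their mean TPM (a level scaled by transcript length and library) was 6.20, against 2.42 over all genes tested, and 32 of 40 lay above the latter. *Ifitm3* was the most abundant at 138 TPM, followed by *Ifi27l2a* (46.4), *Irf7* (28.1), *Bst2* (26.2) and *Cmpk2* (22.5). *Ifi44* (0.04 TPM), *Ifit3b* (0.31 TPM) and *Ifit1* (0.56 TPM) were the lowest. The separated IFIT members were thus among the least abundant of the list, and *Ifitm3* was the most abundant.

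Seen mouse by mouse, the list did not move as 1 block. Of the 39 members with a mean of at least 1 CPM, mouse 8 had the lowest value for 17 and the highest for 1, and its mean log2 level was −0.45 relative to the average of the 6 mice. In the other mice this mean was 0.20, 0.14 and 0.15 (mice 19, 23 and 24) and −0.02 and −0.01 (mice 5 and 7). Mouse 7 was at both extremes, with the highest value for 9 members and the lowest for 10. For 10 members (*Irf7*, *Dhx58*, *Isg15*, *Usp18*, *Ifit2*, *Oas2*, *Oas3*, *Eif2ak2*, *Rsad2* and *Cmpk2*), mice 7 and 19 were the highest pair although they differ in genotype. The mature neutrophil markers, 10 listed genes, summed to 58704, 11655 and 42878 CPM in *Tet2*+/+ and 66123, 122121 and 25868 CPM in *Tet2*-/- blasts, with mouse 7 the highest and mice 23 and 8 the lowest. Erythroid markers were high in mouse 19 (144 CPM) and between 5.91 and 15.2 CPM elsewhere. Of 7 conventional dendritic cell markers, *Clec9a*, at 10.8, 4.12 and 0.563 CPM against 1.96, 7.97 and 3.74 CPM, *Xcr1*, at 8.73, 2.20 and 0.634 CPM against 0.633, 8.17 and 3.91 CPM, *Zbtb46* and *Batf3* were also highest in mice 19 and 7, whereas *Cd209a*, *Flt3* and *Itgax* were not. These 7, named after their values were seen, summed to between 62.5 and 116 CPM, with overlap. The part of such cells in the pattern of mice 7 and 19 was not tested. With 0.1 CPM added, the highest mouse exceeded the lowest by a median of 2.34-fold over the members (1.22- to 13.2-fold), against 2.02-fold over all 13839 genes at that mean level.

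**Figure D5:**
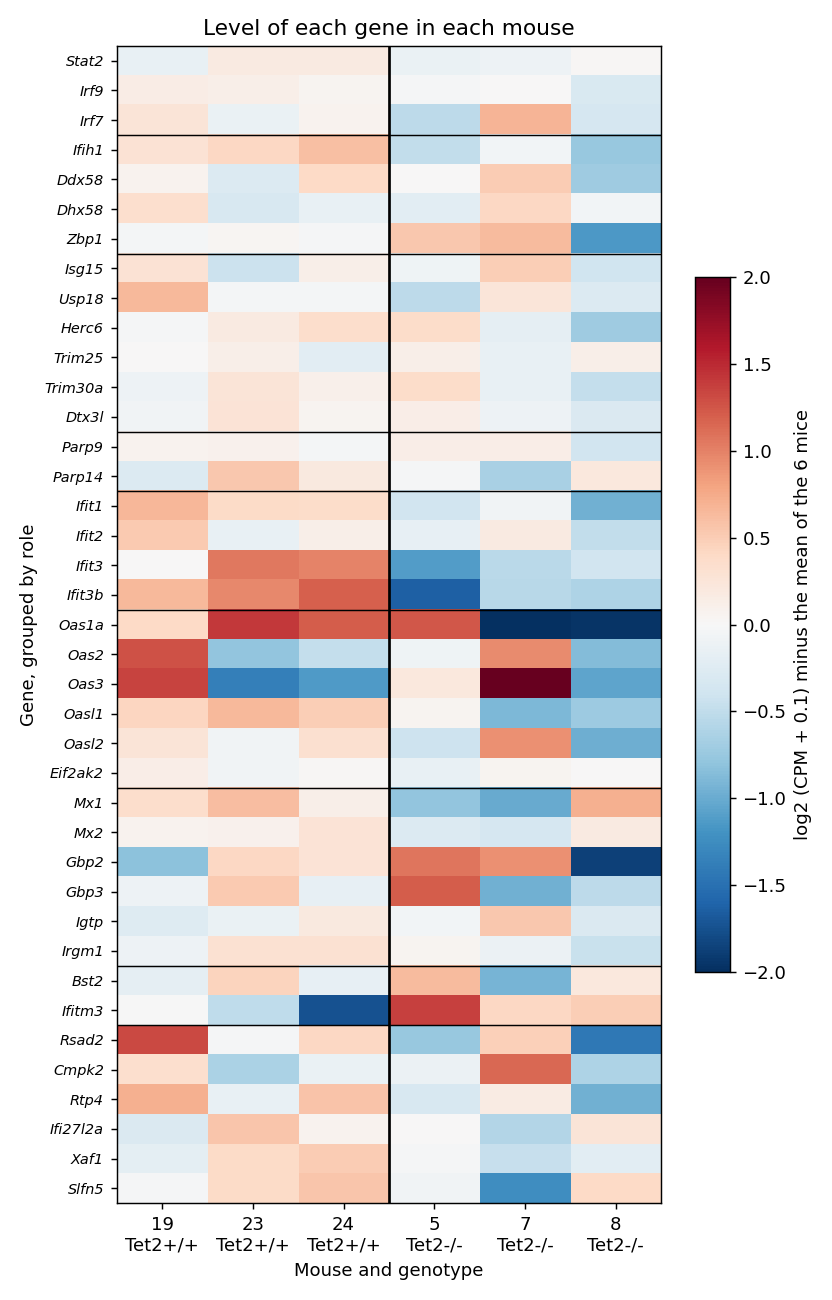
Level of the 39 members with a mean of at least 1 CPM (rows, grouped by role) in each mouse (columns), as log2 (CPM + 0.1) minus the mean of the 6 mice, with colors limited to −2 and 2. Mouse 8 is mostly blue, with the lowest value for 17 members, *Oas2*, *Oas3*, *Rsad2* and *Cmpk2* are red in mice 19 and 7 or in 1 of them, and the *Ifit1* and *Ifit3b* rows change color at the line between genotypes.

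Fold changes were also read beside the promoter windows. Over the 19 members with the core, log2 fold changes had a median of −0.14, and 4 were lower and 1 higher without overlap. The 11 members whose window lacked it had a median of −0.20, with 3 lower without overlap, counting the almost silent *Ifi44*. The 10 members with no window had a median of −0.25, and 0 of them were without overlap. Of the 13839 genes whose mean reached 1 CPM, 7.71% lay lower and 8.24% higher without overlap. *Ifit1*, *Ifit3* and *Ifit3b* shared a core with *Isg15*, *Eif2ak2* and *Ddx58*, whose levels overlapped between genotypes, and with *Ifitm3*.

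The rest of the pathway was read from lists in the same fit. Interferon transcripts themselves were near absent: of 21 interferon genes, 17 had 0 reads in all 6 libraries, which does not exclude a very low level. The most in any mouse was 16 reads, of *Ifng* in mice 23 and 7. The receptor chains were expressed, *Ifnar1* at 86.4, 142 and 112 CPM against 101, 89.1 and 222 CPM and *Ifnar2* at 106, 208 and 143 CPM against 141, 107 and 156 CPM. Of 9 receptor and kinase genes, 0 had an unadjusted p under 0.05 (beside 5.12% of all genes lower and 3.0% higher). The transcription factor *Irf1* was at 74.4, 85.2 and 81.5 CPM against 89.0, 150 and 61.9 CPM, highest in mouse 7. All 8 listed inhibitors of the pathway had positive log2 fold changes (median 0.27), 1 had an unadjusted p under 0.05 (beside 3.0% of all genes), and 2 were higher without overlap (beside 8.24% of genes). The phosphatase *Ptpn1*, which acts on JAK2 and TYK2, was at 163, 170 and 147 CPM against 268, 251 and 214 CPM (log2 fold change 0.61, SE 0.17, adjusted p 0.456 by edgeR with Benjamini-Hochberg adjustment). The SUMO ligase *Pias4*, named after its values were seen, was at 29.7, 26.5 and 30.1 CPM against 38.6, 37.1 and 34.5 CPM (log2 fold change 0.35, SE 0.16). Of 20 genes of nucleic acid sensing upstream of interferon, 2 had an unadjusted p under 0.05, both higher (beside 3.0% of all genes): *Rnaseh2c*, a subunit of RNase H2 (log2 fold change 1.19, SE 0.27), and the adaptor *Myd88* (log2 fold change 0.46, SE 0.16). Their adjusted p were 0.318 and 0.584 by edgeR with Benjamini-Hochberg adjustment. Of the 20, 15 had positive log2 fold changes (median 0.19) and 4 were higher without overlap (beside 8.24% of genes), the other two being *Ticam1* and *Irak4*, named after their values were seen.

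Among 70 other interferon-stimulated genes that were tested, p was under 0.05 before adjustment for 8 with a lower level (beside 5.12% of all genes) and 2 with a higher level (beside 3.0%). In 66 of them the mean reached 1 CPM, and of these 8 were lower and 3 higher without overlap, beside 7.71% and 8.24% of genes at that level, and the median log2 fold change of the 70 was −0.09. *Ifitm2*, a paralog of *Ifitm3* in the same gene cluster, was at 120, 104 and 61.1 CPM in *Tet2*+/+ and 331, 168 and 207 CPM in *Tet2*-/- blasts, the same order of the 6 mice as for *Ifitm3* (log2 fold change 1.31, SE 0.34). *Ifitm1* of that cluster, named after its values were seen, overlapped and had another order of mice. It was at 8.91, 7.98 and 4.58 CPM against 40.4, 25.5 and 7.38 CPM (log2 fold change 1.77, SE 0.59). The guanylate-binding genes *Gbp8* (log2 fold change −2.46, SE 0.68), *Gbp9* (−1.27, SE 0.42) and *Gbp4* (−1.33, SE 0.47) were lower without overlap, whereas the members *Gbp2* and *Gbp3* overlapped. The annotated spans of *Gbp8*, *Gbp9* and *Gbp4* cover a common stretch of the minus strand of chromosome 5. Their shared sequence was not measured, so the split of reads between them is uncertain. *Ifi213* (−1.25, SE 0.45) and *Parp11* (−0.51, SE 0.18) were also lower without overlap. None of these passed adjustment by edgeR, while DESeq2 called *Gbp8* and *Ifitm2*, with adjusted p of 0.0192 and 0.0268.

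Plasmacytoid dendritic cells, the main producers of type I interferon and themselves rich in *Irf7*, were followed by 11 tested markers. These summed to 218, 221 and 190 CPM against 210, 216 and 202 CPM, and 8 of 11 had negative log2 fold changes. The sum was carried by *Lair1*, *Runx2*, *Smim5* and *Tcf4*, with means of 95.0, 53.2, 38.1 and 16.3 CPM, while the other 7 markers reached at most 3.45 CPM in any mouse. Of the 7 with a mean of at least 1 CPM, 1 did not overlap (beside 7.71% of genes lower), the defining marker *Siglech*, at 2.09, 2.41 and 1.62 CPM in *Tet2*+/+ and 0.316, 0.386 and 0.434 CPM in *Tet2*-/- blasts. B and plasma cell markers summed to 183, 263 and 160 CPM against 108, 51.1 and 80.1 CPM, without overlap. This separation came with *Jchain*, at 98.5, 165 and 135 CPM against 44.1, 27.6 and 26.6 CPM, and the sum of the other 6 markers overlapped, at 84.7, 97.8 and 24.8 CPM against 63.8, 23.5 and 53.5 CPM. Of the 7 markers, 6 had negative log2 fold changes (median −0.71) and 1, *Jchain*, did not overlap (beside 7.71% of genes lower). *Mzb1* overlapped, at 34.7, 16.1 and 2.53 CPM against 4.18, 1.16 and 2.71 CPM (log2 fold change −2.71, SE 0.90). The sort for cells without B220 acts on B cells and, in mice, also on plasmacytoid dendritic cells, which carry B220. T and NK cell markers summed to 109, 88.2 and 86.5 CPM against 137, 122 and 56.2 CPM, overlapping, with *Nkg7* the largest part, and 5 of 10 had positive log2 fold changes (median −0.04). Of these 10, 1 did not overlap (beside 7.71% of genes lower), the NK cell marker *Ncr1*, at 4.49, 3.64 and 5.35 CPM against 1.42, 1.16 and 0.488 CPM. *Jchain*, *Mzb1* and *Ncr1* were named after their values were seen. *Jchain*, *Siglech*, *Ncr1* and the blast marker *Mpo* were lower without overlap, as were *Ifih1*, *Oasl1* and 3 IFIT genes. The part of such cells in those differences was not tested.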

How the data were processed

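Blasts of 6 mice were analysed by RNA-seq, 1 library per mouse, from unstranded TruSeq libraries. Per the labels and methods, the authors quantified transcripts of Ensembl 94 (GRCm38) with Salmon 0.12.0 and deposited, for 136288 transcripts, an estimated count and a TPM value, without normalization between mice. The estimated counts were summed here to genes of GENCODE M21 and rounded, and 112 transcripts without a gene (0.0307% to 0.0416% of reads) were left out. The TPM values deposited by the authors were summed to genes and used for levels only.

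The 22170 genes with a sum of at least 10 counts, normalized by library size, were compared with edgeR 4.0.16 (R 4.3.3; TMM, quasi-likelihood test, no covariates) and Benjamini-Hochberg adjustment over all of them. The standard error was derived from the F statistic. The biological coefficient of variation was 43.6%. The members, lists and roles were chosen with earlier results of these data known, so no list was tested. Values per mouse are given for members that passed, that did not overlap at a mean of at least 1 CPM, that were among the 2 most abundant of their role by TPM, and for *Stat2*, *Irf9*, *Irf7*, *Isg15*, *Usp18* and *Bst2*. In the other lists, genes with an unadjusted p under 0.05 and no overlap are named (at most 6 per list), with *Irf1*, *Ifnar1*, *Ifnar2* and the interferon with most reads. A further gene set by this rule is not reported here. The script was tested on simulated data. Shared sequence is the share of a gene's 75-base windows found in another gene. Figures were drawn with matplotlib 3.10.9. Alternatives were DESeq2 1.42.0, length-scaled counts from TPM, other filters and scalings, robust estimation and leaving out each mouse. No batch is given for the samples.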

Additional observations from a re-analysis of the deposited data

How the results depend on the processing

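With DESeq2 on the same counts, 326 genes were lower and 59 higher, and with DESeq2 on length-scaled counts 322 and 64, but 0 members passed in either. In both, 1 of the other interferon-stimulated genes was lower and 1 higher. With edgeR, length-scaled counts gave 5 genes lower, no filter on low counts gave 62 lower and 4 higher, and filterByExpr and RLE factors each gave 1 higher. Without a filter, 4 other interferon-stimulated genes were higher at an unadjusted p under 0.05 (beside 2.54% of all genes). With filterByExpr, 1 was higher without overlap (beside 7.46% of genes whose mean reached 1 CPM). With library size only, 10 members were lower without overlap (beside 12.2% of the 13839 genes whose mean reached 1 CPM). The median log2 fold change was −0.37 for the members and −0.26 for the other interferon-stimulated genes, and 1 of the latter was higher without overlap (beside 2.93% of those 13839 genes). Relative to the median of all genes, the members' median was then −0.20, against −0.19 with TMM. The cause of these differences was not tested.

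Signs are given for the 30 members with CPM per mouse in the text. The sign of *Dhx58* changed with length-scaled counts (−0.0087 with edgeR and −0.0047 with DESeq2), and with library size only the log2 fold changes of *Bst2* (−0.11), *Dhx58* (−0.0886), *Gbp3* (−0.0441), *Isg15* (−0.16) and *Trim25* (−0.11) turned negative.

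Leaving out each mouse gave between 0 and 7 genes lower and 0 higher among all genes, and 0 members called. Members lower at an unadjusted p under 0.05 numbered from 3 (without mouse 23, beside 3.97% of all genes) to 8 (without mouse 7, beside 4.97%), and higher ones from 0 (without mouse 5, beside 2.10%) to 3 (without mouse 8, beside 4.12%, which added *Zbp1* and *Gbp2* and, among the lower ones, *Mx1*). *Ifih1* and *Ifit3* stayed among the lower ones in every alternative, *Ifit3b* in every one that counted it separately, and *Oasl1* in all but those without mouse 23 or 8. The members' median was between −0.28 and −0.10. For the other interferon-stimulated genes, 3 to 9 were lower (beside 3.58% to 5.54% of all genes) and 2 to 9 higher (beside 1.16% to 4.71%), with medians from −0.15 to −0.04. Log2 fold changes that changed sign ranged from −0.32 to 0.38 for *Bst2*, −0.25 to 0.74 for *Cmpk2*, −0.39 to 0.19 for *Ddx58*, −0.12 to 0.30 for *Dhx58*, −0.86 to 0.48 for *Gbp3*, −0.41 to 0.0147 for *Ifi27l2a*, −0.50 to 0.18 for *Irf7*, −0.25 to 0.21 for *Isg15*, −0.73 to 0.81 for *Oas2*, −0.45 to 2.18 for *Oas3*, −0.85 to 0.22 for *Oasl2*, −0.14 to 0.0934 for *Parp9*, −0.0270 to 0.14 for *Trim25* and −0.40 to 0.0334 for *Trim30a*. No paired analysis was possible because the mouse numbers are not shared between genotypes. With 3 mice per genotype, p-values rest only on these mice. In edgeR, the variance used for each gene was also informed by that of all genes tested.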
